A study of Mus musculus with 6 samples.

Results

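The genes described here are the 10 that carry the core of cellular iron uptake, storage, and regulation: *Tfrc* and *Trf* (uptake from plasma), *Steap2* and *Steap3* (ferric reductases), *Slc25a37* (mitochondrial import), *Fth1* and *Ftl1* (storage), *Cp* (ferroxidase), and *Aco1* and *Ireb2* (regulation). They were chosen by name for their known roles, not by their values, out of 53715 genes in the table, although earlier results of these data were known. All 10 were abundant enough to be tested. Cerebellum RNA from male C57BL/6 mice (C57BL/6J in the methods) at 4 weeks of age, 3 control and 3 *Slc39a8*-NSKO, was analysed by RNA-Seq. In *Slc39a8*-NSKO mice, Cre recombinase under the synapsin I promoter deletes both floxed alleles of *Slc39a8*, the gene for a plasma membrane transporter of zinc, iron, and manganese, in neurons, so that glial, endothelial, and choroid plexus cells are not its target. Controls are called *Slc39a8* fl/fl where the study first describes the cross, whereas the sample labels call the sequenced controls WT, and the counts do not settle which. No animal received a treatment. Because whole tissue was measured, fewer cells of a type and less RNA per cell cannot be told apart.

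In plasma, iron travels bound to transferrin (*Trf*), which enters cells with the transferrin receptor (*Tfrc*). Ferric iron is reduced in the endosome by STEAP proteins, leaves as ferrous iron, and is used in mitochondria, where mitoferrin 1 (*Slc25a37*) carries it across the inner membrane, or is stored in ferritin, a shell of heavy (*Fth1*) and light (*Ftl1*) chains. When cells lack iron, the iron regulatory proteins IRP1 (*Aco1*) and IRP2 (*Ireb2*) bind stem-loops in mRNA called iron-responsive elements. Bound at the start of ferritin mRNAs they block translation, and bound in the tail of *Tfrc* mRNA they protect it from decay. Hence *Tfrc* mRNA is known as a readout of cellular iron, whereas ferritin is largely set by translation, which mRNA counts do not measure. In the brain, *Trf* is made mainly by oligodendrocytes and the choroid plexus.

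The stem-loops are shown because they are the sequence by which 3 of the 10 genes are known to sense iron. In GENCODE M21 transcripts on GRCm38, a pattern was searched on the sense strand: a C, any 5 bases, the loop CAGTGN, and 5 bases able to pair with the first 5, with G-T pairs allowed. Each match is printed 5′ to 3′ as 27 bases, with the loop in capitals.

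*Fth1*, 5′ UTR, exon 1 of 4, chr19:9982733-9982759, plus strand: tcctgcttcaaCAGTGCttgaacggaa

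*Ftl1*, 5′ UTR, exon 1 of 4, chr7:45459780-45459806, minus strand: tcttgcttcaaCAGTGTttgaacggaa

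*Tfrc*, 3′ UTR, exon 19 of 19, chr16:32631220-32631246, plus strand: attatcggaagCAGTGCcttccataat

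*Tfrc*, the same exon, chr16:32631599-32631625: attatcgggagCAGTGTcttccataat

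*Tfrc*, the same exon, chr16:32631664-32631690: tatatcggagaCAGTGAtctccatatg

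*Tfrc*, the same exon, chr16:32631711-32631737: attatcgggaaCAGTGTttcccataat

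*Slc40a1* (ferroportin, the iron exporter), 5′ UTR, exon 1 of 8, chr1:45925466-45925492, minus strand: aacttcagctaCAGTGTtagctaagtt

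The ferritin elements were the same at 25 of 27 bases, whereas the *Slc40a1* element shared 13 bases with each of them. The 4 *Tfrc* matches lay within 518 bases of 1 exon, and pairs of them shared 17 to 25 of 27 bases. A match in a UTR was found in 3 of the 10 genes (30%) and in 175 of 21951 protein-coding genes (0.797%). Among 34 other iron genes described further on, *Slc40a1* was the single match (2.94%). The pattern allows no unpaired base between the loop and the fixed C, so elements of other shapes would be missed. A gene without a match may therefore still hold an element, and a gene with matches may hold more elements than were matched. Anywhere in a transcript, the loop alone was present in 94.0% of protein-coding genes and the full pattern in 1.37%. The paired stem and the fixed C thus set the pattern apart. All 10 iron genes held the loop alone, and in 7 of them the full pattern of loop and paired stem was not found in the annotated transcripts.

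Per length of exon, the ferritin chains and transferrin were far above the rest in both genotypes, and the order of the 10 genes spanned 799-fold in controls. Levels were computed as CPM (counts scaled to a common library total, after TMM normalization) and divided by all annotated exonic bases in kb, so that genes could be set side by side. In controls, *Fth1* stood at 351 ± 10.4 CPM per kb, *Ftl1* at 236 ± 7.31, and *Trf* at 139.6 ± 4.497 (SD, n = 3). *Tfrc* followed at 17.1 CPM per kb, so that *Trf* mRNA per kb was 8.15 times *Tfrc* mRNA per kb in whole tissue. *Steap2* (8.61 CPM per kb) and *Ireb2* (8.43) could not be ordered, because their values overlapped in both genotypes. *Aco1* (7.35 CPM per kb), *Slc25a37* (4.29), *Cp* (1.41), and *Steap3* (0.439) completed the order, and apart from *Steap2* and *Ireb2* no neighbours overlapped among mice of a genotype. The level of *Fth1* was 1.49 times that of *Ftl1* with this length and 2.50 times with the longest coding transcript as the length, a choice made after seeing the data that also placed *Ireb2* above *Steap2* and left the other ranks unchanged. With that length *Fth1* stood at 814 and *Steap3* at 0.487 CPM per kb in controls, so that the span of the 10 genes was wider than 799-fold.

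**Figure D1:**
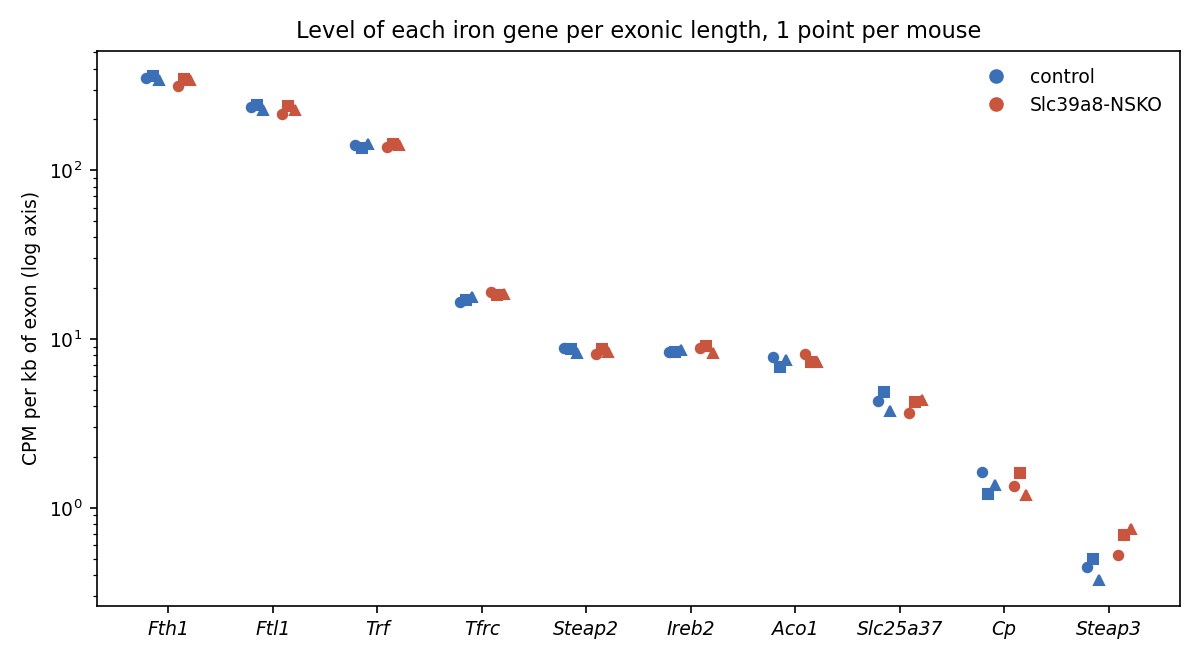
Level of each of the 10 iron genes in CPM per kb of exon, on a log axis, with 1 point per mouse (circle, square, and triangle for mice 1, 2, and 3) in control (blue) and *Slc39a8*-NSKO (red) cerebellum. *Fth1*, *Ftl1*, and *Trf* sit above 100 CPM per kb and *Steap3* is lowest, and in *Steap3* the red points lie above the blue ones.

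In the comparison of genotypes, none of the 10 genes passed an adjusted p below 0.05 in the quasi-likelihood test of edgeR across the 16330 genes tested, where 0.098% of genes passed. At an unadjusted p below 0.05, 1 of the 10 was called (*Steap3*, higher), against 5.39% of all genes. DESeq2 and limma-voom called none after adjustment either, and each gave 1 at an unadjusted p below 0.05. The share of all genes at that cut was not counted for these fits. Control and *Slc39a8*-NSKO values were fully apart for 2 of the 10, *Tfrc* and *Steap3*, both higher in *Slc39a8*-NSKO, against 10.3% of all genes (5.07% higher and 5.26% lower). Of the 10, 5 had a positive and 5 a negative log2 fold change, with a median of −0.01 against 0.0011 over all genes. For the 9 genes other than *Steap3*, log2 fold changes lay between −0.07 and 0.11, and the widest 95% interval, that of *Cp*, reached from 79.9% to 120.0% of the control level. The intervals of the abundant genes were narrower, such as 93.3% to 108% for *Trf* and 87.9% to 103% for *Fth1*.

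**Figure D2:**
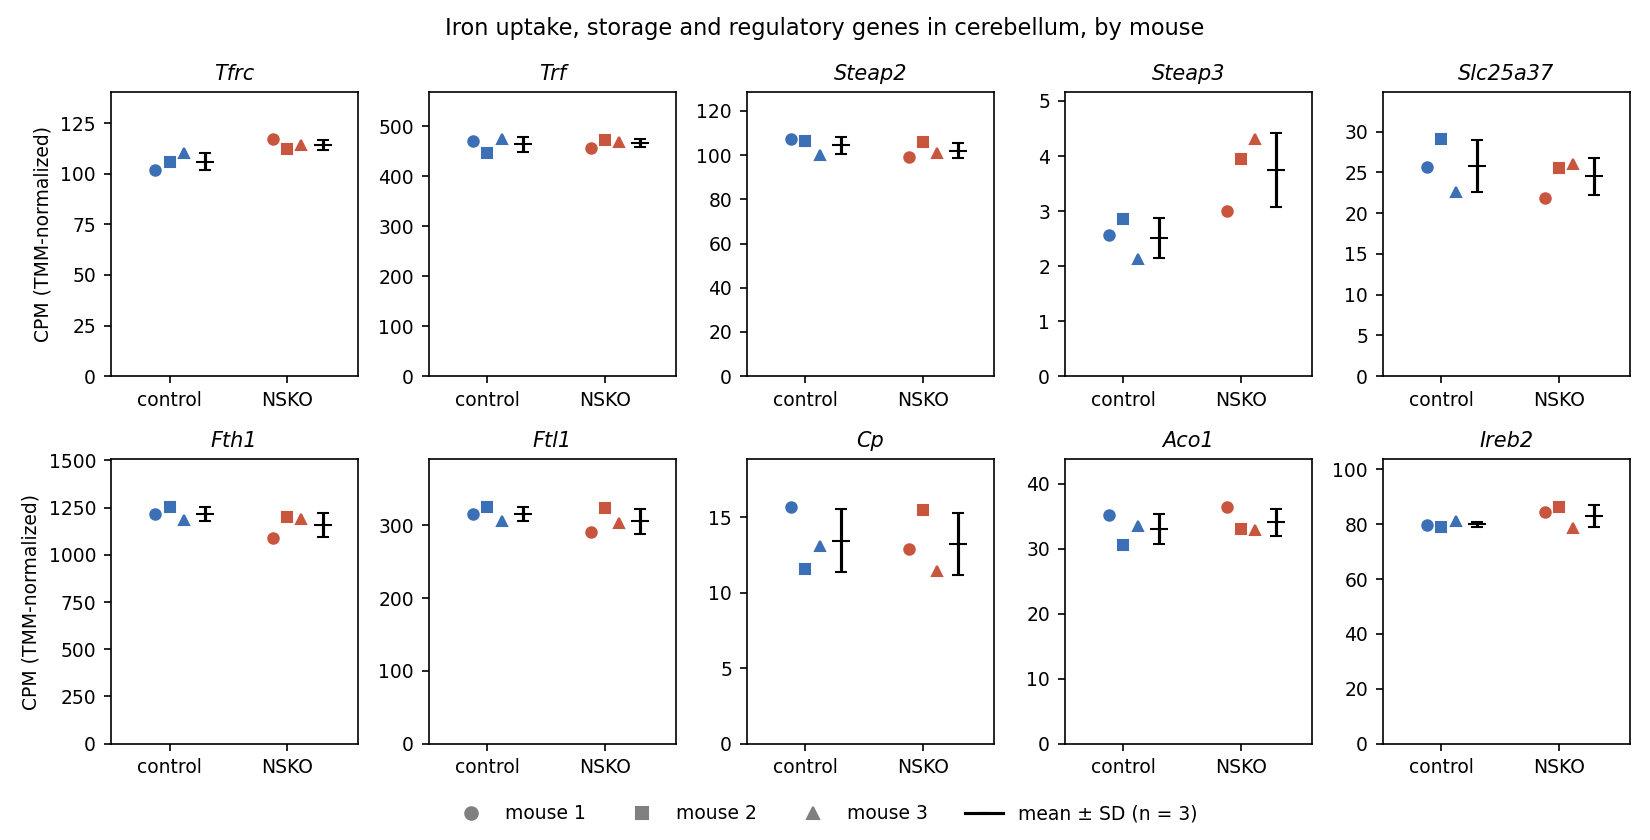
CPM of the 10 iron genes in each mouse, with the mean ± SD of 3 mice beside the points. Each vertical axis starts at 0 and has its own scale. The genotypes are apart in *Tfrc* (102 to 110.2 CPM in control, 112 to 117 in *Slc39a8*-NSKO) and *Steap3* (2.12 to 2.85 and 3.004 to 4.30) and overlap in the other 8 genes.

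*Tfrc* (ENSMUSG00000022797.15, chr16:32608920-32632794, plus strand), the receptor that brings transferrin-bound iron into the cell, had 102, 106, and 110.2 CPM in control mice 1 to 3 and 117, 112, and 114 CPM in *Slc39a8*-NSKO mice 1 to 3. All 3 *Slc39a8*-NSKO mice were above the highest control, by a margin smaller than the spread among controls. Means were 106 ± 4.19 and 114 ± 2.46 CPM (SD, n = 3 each), and the log2 fold change was 0.11 (standard error [SE] 0.054, 95% interval −0.0058 to 0.23) or 108% of control. The adjusted p was 0.931 in edgeR's quasi-likelihood test, and the exact permutation p was 0.1, the smallest that 3 mice against 3 can give. *Trf* (ENSMUSG00000032554.15, chr9:103204001-103230444, minus strand), the plasma iron carrier, had 471, 446, and 474 CPM in controls and 457, 472, and 467 CPM in *Slc39a8*-NSKO mice. These values interleaved, and the log2 fold change was 0.01 (SE 0.049, 95% interval −0.10 to 0.11, edgeR adjusted p = 0.998). A read-through gene, *Gm20425*, shares 2108 exonic bases with *Trf* and was assigned at most 2.25% as many counts as *Trf* in any mouse, and summing both gave a log2 fold change of 0.0036.

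The STEAP genes encode membrane reductases that turn ferric into ferrous iron. *Steap3* (ENSMUSG00000026389.16, chr1:120190757-120272705, minus strand), best known as the reductase of the transferrin cycle in red cell precursors, was the scarcest of the 10 genes. Counts were 53, 41, and 33 in controls and 60, 77, and 81 in *Slc39a8*-NSKO mice, which correspond to 2.56, 2.85, and 2.12 CPM and to 3.004, 3.95, and 4.30 CPM. Every *Slc39a8*-NSKO mouse was above every control, and *Slc39a8*-NSKO mouse 1 was close to the highest control. Means were 2.51 ± 0.368 and 3.75 ± 0.672 CPM (SD, n = 3 each), and the log2 fold change was 0.58 (SE 0.214) or 149% of control, with a 95% interval of 109% to 205%. This difference did not pass (edgeR adjusted p = 0.860, unadjusted p = 0.0174), and it ranked 326 among all genes tested. Without *Slc39a8*-NSKO mouse 2, or without mouse 3, no member had an unadjusted p below 0.05. *Steap2* (ENSMUSG00000015653.13, chr5:5664829-5694578, minus strand), which was 19.6 times as high per kb as *Steap3* in controls, had 107, 106, and 100.2 CPM in controls and 99.2, 106, and 101 CPM in *Slc39a8*-NSKO mice. Its values overlapped, with a log2 fold change of −0.03 (SE 0.056, 95% interval −0.15 to 0.09, edgeR adjusted p = 0.994).

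*Slc25a37* (ENSMUSG00000034248.7, chr14:69241848-69285112, minus strand) encodes mitoferrin 1, which brings iron into mitochondria for heme and iron-sulfur clusters. Control mice had 25.7, 29.1, and 22.6 CPM, and *Slc39a8*-NSKO mice had 21.9, 25.6, and 26.1 CPM. The control values alone covered most of the range, and the log2 fold change of −0.07 was smaller than its SE of 0.0998 (95% interval −0.29 to 0.14, edgeR adjusted p = 0.994).

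The ferritin chains were the most abundant of the group and had slightly lower means in *Slc39a8*-NSKO mice, within the spread between mice. *Fth1* (ENSMUSG00000024661.6, chr19:9980598-9985098, plus strand), whose chain oxidizes iron as it enters the shell, took 0.108% to 0.125% of all counts in a library. It had 1214, 1254, and 1182 CPM in controls and 1087, 1198, and 1190.3 CPM in *Slc39a8*-NSKO mice. The value of *Slc39a8*-NSKO mouse 1 was below all others, and the remaining 2 lay within the control range. Means were 1217 ± 36.0 and 1159 ± 62.2 CPM (SD, n = 3 each), with a log2 fold change of −0.07 (SE 0.054, 95% interval −0.19 to 0.05, edgeR adjusted p = 0.994). *Ftl1* (ENSMUSG00000050708.16, chr7:45457944-45459884, minus strand), whose chain helps the mineral core form, had 316, 325, and 306 CPM in controls and 290.3, 324, and 303 CPM in *Slc39a8*-NSKO mice. *Slc39a8*-NSKO mouse 1 was again the lowest of all 6 mice, and the log2 fold change was −0.05 (SE 0.055, 95% interval −0.16 to 0.07, edgeR adjusted p = 0.994). Without that mouse the log2 fold changes were −0.02 for *Fth1* and −0.01 for *Ftl1*. Ferritin genes have near-identical copies between which reads can be divided. The 3 rows named as *Ftl* copies held at most 0.778% as many counts as *Ftl1*, most of them on *Ftl1-ps1*, and the 11 named as *Fth* copies at most 0.0159% as many as *Fth1*. Rows were picked by names that start with *Fth* or *Ftl*. This takes in the *Fthl17* family and would miss copies under other names, so these shares cover the named rows only.

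*Cp* (ENSMUSG00000003617.16, chr3:19957054-20009145, plus strand) encodes ceruloplasmin, a copper protein that oxidizes ferrous iron so that exported iron can bind transferrin, and in the brain it is known as a product of astrocytes. Values were 15.7, 11.5, and 13.1 CPM in controls and 12.9, 15.5, and 11.4 CPM in *Slc39a8*-NSKO mice, so that the genotypes covered almost the same range. The log2 fold change was −0.03 with the widest interval of the 9 genes other than *Steap3* (SE 0.136, 95% interval −0.32 to 0.26, edgeR adjusted p = 0.997). *Cp* overlaps *Hps3* on the opposite strand by 108 exonic bases, *Hps3* held 293 to 409 counts per library against 166 to 325 for *Cp*, and whether strand was used in counting is not given in the sources used here. The same limit holds for *Ftl1*, which shares 355 exonic bases with *Gm10252*, and for *Slc25a37*, which shares 381 with *Gm31748*, where the opposite-strand genes held at most 33.6 and 7.33 counts in a library.

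The iron regulatory proteins had slightly higher means in *Slc39a8*-NSKO mice, within the spread between mice. *Aco1* (ENSMUSG00000028405.9, chr4:40143081-40198338, plus strand) encodes IRP1, which is cytosolic aconitase when it holds an iron-sulfur cluster and binds RNA when it does not. It had 35.1, 30.5, and 33.5 CPM in controls and 36.4, 33.0, and 32.8 CPM in *Slc39a8*-NSKO mice (log2 fold change 0.04, SE 0.077, 95% interval −0.12 to 0.21, edgeR adjusted p = 0.994). *Ireb2* (ENSMUSG00000032293.8, chr9:54863789-54912530, plus strand) encodes IRP2, which is destroyed when iron is plentiful. It had 79.6, 79.1, and 81.0 CPM in controls, the tightest spread of the group at a coefficient of variation of 1.23%, and 84.3, 86.3, and 78.6 CPM in *Slc39a8*-NSKO mice. Of the latter, 2 were above and 1 was below all controls, and the log2 fold change was 0.06 (SE 0.057, 95% interval −0.07 to 0.18, edgeR adjusted p = 0.994). Both proteins are known to be controlled mainly after translation, which these counts do not measure.

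Ratios within a library do not depend on its depth, and 3 were computed for each mouse from expected counts. The ratio of *Tfrc* to *Fth1*, receptor over storage, was 0.0839, 0.0844, and 0.0932 in control mice 1 to 3 and 0.108, 0.0935, and 0.0959 in *Slc39a8*-NSKO mice 1 to 3. The genotypes did not overlap, although control mouse 3 and *Slc39a8*-NSKO mouse 2 were almost equal. Means were 0.0872 ± 0.00523 and 0.0990 ± 0.00754, a log2 difference of 0.18 with an exact two-sided permutation p of 0.1 (0.3 after Benjamini-Hochberg adjustment over the 3 ratios, n = 3 each), and a p of 0.1 is the smallest this design allows. Without *Slc39a8*-NSKO mouse 1 the log2 difference was 0.12. The ratio of *Fth1* to *Ftl1*, heavy over light chain, was 3.84, 3.85, and 3.87 in controls and 3.74, 3.70, and 3.93 in *Slc39a8*-NSKO mice. Control mice were thus nearly identical in this ratio (3.85 ± 0.0106), whereas *Slc39a8*-NSKO mice fell on both sides of them (3.79 ± 0.123, exact permutation p = 0.4, adjusted 0.6, n = 3 each). The ratio of *Ireb2* to *Aco1* was 2.42 ± 0.163 in controls and 2.44 ± 0.158 in *Slc39a8*-NSKO mice (exact permutation p = 0.8, adjusted 0.8, n = 3 each). The ratios are of counts per gene, so only their difference between genotypes, and not their level, can be read.

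**Figure D3:**
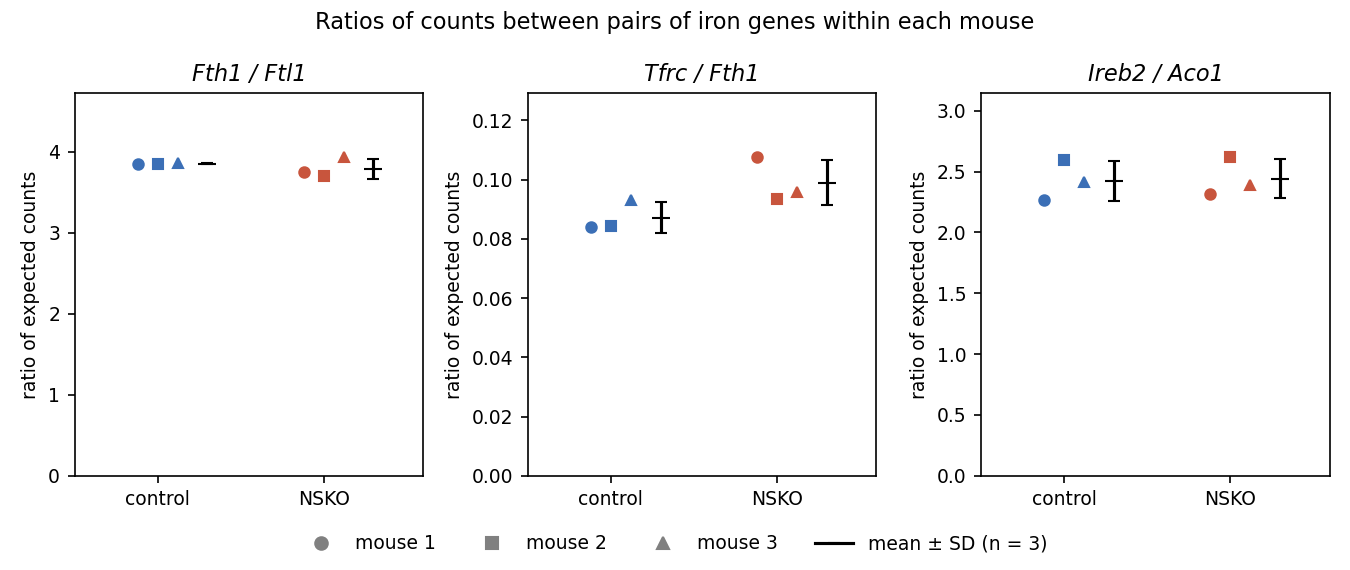
Ratio of expected counts for 3 pairs of iron genes in each mouse, with the mean ± SD of 3 mice beside the points. Axes start at 0. *Tfrc* over *Fth1* is higher in all 3 *Slc39a8*-NSKO mice (0.0935 to 0.108) than in the controls (0.0839 to 0.0932), and the other ratios overlap.

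The wider iron pathway was described with 34 other genes grouped by role, of which 28 were tested. None passed after adjustment, 14 had a positive and 14 a negative log2 fold change, and the median was 0.0028. At an unadjusted p below 0.05 there were 2, *Slc39a8* and *Slc40a1*, both lower in *Slc39a8*-NSKO, against 5.39% of all genes tested. *Slc39a8*, which is in the list and is the deleted gene, had 4.78, 3.20, and 2.83 CPM in controls and 1.90, 2.05, and 2.18 CPM in *Slc39a8*-NSKO mice, with no overlap. Its log2 fold change was −0.83 (SE 0.237, edgeR adjusted p = 0.534), and −0.56 without control mouse 1, the highest. With no filter on low counts its edgeR adjusted p was 0.0764, the lowest of the alternatives. *Slc40a1* encodes ferroportin, the only known iron exporter of mammalian cells. It had 7.67, 6.81, and 6.81 CPM in controls and 6.06, 5.90, and 5.05 CPM in *Slc39a8*-NSKO mice, so that every *Slc39a8*-NSKO mouse was below every control. Means were 7.10 ± 0.497 and 5.67 ± 0.545 CPM (SD, n = 3 each), and the log2 fold change was −0.33 (SE 0.142, 95% interval −0.63 to −0.02) or 79.7% of control, with an unadjusted p of 0.0374 in edgeR's test and 0.908 after adjustment. In a supplemental figure on metal transporters, given apart from its RNA-Seq results, the study reported no substantial change in *Slc40a1* or *Slc11a2* transcripts. It also found that iron concentrations in brain regions did not differ between genotypes.

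By role, both tested genes of export had negative log2 fold changes, *Slc40a1* and *Heph* (hephaestin, a ferroxidase that works with ferroportin, 4.37 ± 0.317 and 3.95 ± 0.0518 CPM, n = 3 each, log2 fold change −0.15, edgeR adjusted p = 0.994). Of 7 genes of import and reduction, 3 were positive and 4 negative. Among them *Slc11a2*, which encodes the divalent metal transporter DMT1 that releases iron from endosomes, had 47.6 ± 2.38 CPM in controls and 47.5 ± 4.09 in *Slc39a8*-NSKO mice (SD, n = 3 each), for a log2 fold change of −0.0011 (95% interval −0.16 to 0.16) whose sign changed with the scaling. In ferritin turnover, *Ncoa4*, the receptor that carries ferritin to the lysosome, had a log2 fold change of −0.04 (SE 0.054), and *Fbxl5*, which marks IRP2 for destruction, one of 0.10 (SE 0.064), with adjusted p values of 0.994 and 0.993 from edgeR's test. The 12 genes of mitochondrial iron, iron-sulfur clusters, and heme divided into 6 positive and 6 negative, between −0.15 and 0.053. *Slc25a28*, the ubiquitous mitoferrin 2, was at 31.0 ± 4.05 and 30.3 ± 2.05 CPM (SD, n = 3 each). In 4 of the 28 genes the genotypes did not overlap, namely *Slc39a8*, *Slc40a1*, *Heph*, and *Flvcr1* (a heme exporter in its original description), each lower in *Slc39a8*-NSKO mice, against 10.3% of all genes tested (5.26% lower). Besides the genes that the rule names, *Heph* and *Flvcr1* are given because their values did not overlap, and the genes in the next sentence because they had few or no counts. *Hamp* (hepcidin), *Hephl1*, and *Ftmt* were listed at 0 in all mice, and *Steap4*, *Tmprss6*, and *Hfe2* (hemojuvelin) had too few counts to be tested.

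**Figure D4:**
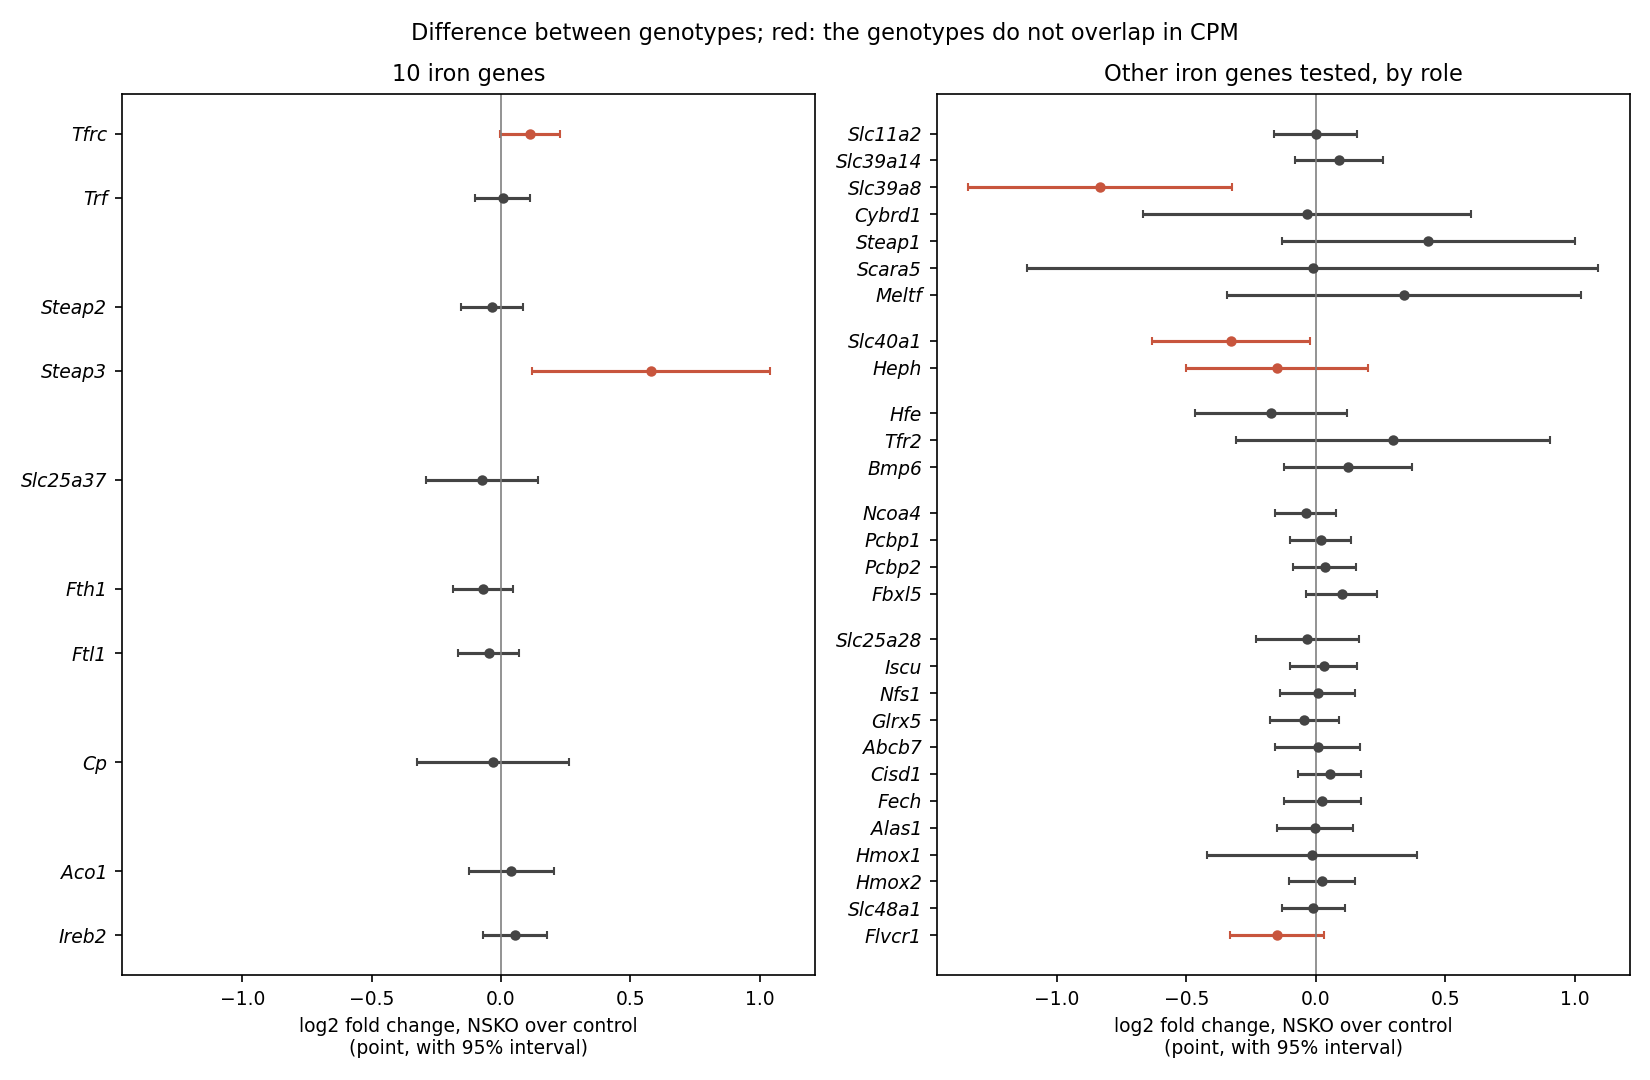
Log2 fold change of *Slc39a8*-NSKO over control with its 95% interval from edgeR's fit, for the 10 iron genes (left) and the 28 tested genes of the wider list (right), grouped by role. Red marks genes whose genotypes do not overlap in CPM (2 of 10 and 4 of 28, against 10.3% of all genes tested), and none of the genes shown passed after adjustment. The 4 include *Slc39a8*, the gene deleted in these mice.

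Libraries held 14431260 to 20844267 counts on genes, the 10 iron genes took 0.220% to 0.238% of them, and TMM factors lay between 0.995 and 1.004, so that scaling hardly moved the values. Markers of cells that hold or handle iron were examined beside the iron genes. Summed markers of Bergmann glia and astrocytes (5 genes) ranged from 1802 to 2100.3 CPM in controls and from 2133 to 2205 in *Slc39a8*-NSKO mice. Those of microglia (5 genes) ranged from 66.1 to 74.6 and from 77.5 to 81.3 CPM, so that both sums were higher in every *Slc39a8*-NSKO mouse. How often sums of other genes separate was not counted. The most abundant glial marker, *Slc1a3*, overlapped (1006 to 1166 CPM in controls and 1141 to 1163 in *Slc39a8*-NSKO mice). Taken singly, 2 of the 5 glial markers (*Gfap* and *Aqp4*) and 1 of the 5 microglial markers (*Csf1r*) did not overlap, all higher. The share over all genes tested was 5.07% higher. The other markers of both lists overlapped between genotypes. Choroid plexus markers (6 genes) ranged from 775 to 1116 and from 905 to 1557 CPM, erythroid markers (5 genes) from 234 to 535 and from 349 to 556 CPM, and oligodendrocyte markers (6 genes) from 8160 to 9290 and from 7585 to 9152 CPM. The choroid plexus sum was mostly *Ttr* (94.0% in controls), and of its 6 markers 3 had an unadjusted p below 0.05 in edgeR's test, all higher in *Slc39a8*-NSKO mice: *Folr1* (log2 fold change 0.96, adjusted p = 0.228, genotypes not overlapping), *Kl* (0.42, adjusted p = 0.908), and *Clic6* (0.35, adjusted p = 0.838). Over all genes tested, 5.39% had an unadjusted p below 0.05 and 10.3% did not overlap. Endothelial, Purkinje cell, and granule cell sums overlapped as well, with means at 95.4%, 102%, and 102% of control. The granule cell markers (3481 to 3617 CPM in controls) and Purkinje cell markers (3600 to 3804 CPM) were present in every library. No marker was at 0 and none of the 40 passed after adjustment. The part of these cell types in the values of the iron genes was not tested.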

How the data were processed

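As deposited by the authors, values were expected counts per gene and mouse, with no normalization. The methods give oligo-dT cDNA, paired-end reads, and STAR alignment to an Ensembl reference, and the submitters' processing notes add RSEM and mm10, without versions. The table held 53715 genes and 92 spike-in rows (at most 5 counts per library), which were left out, and GENCODE M21 contained 53620 of the genes. All sample columns were used. Counts were rounded and tested in R 4.3.3 with edgeR 4.0.16 (TMM, filterByExpr, quasi-likelihood test, no covariate) on 16330 genes, with Benjamini-Hochberg adjustment, and the scripts were tested on simulated data. Alternatives used DESeq2 1.42.0, limma 3.58.1 (voom), other scalings and filters, unrounded counts, ferritin copies summed, a replicate block, a threshold of 0.1, and each mouse left out. The iron genes and lists were chosen with earlier results of these data known. A gene of the wider list is not reported here and was left out of that list's counts. Named genes are the 10 members, *Slc39a8*, *Slc11a2*, *Slc40a1*, *Slc25a28*, *Ncoa4*, *Fbxl5*, others of the wider list with an unadjusted p below 0.05, and ferritin copies with counts. Each gene's depth limits its precision, and *Steap3* with 33 to 81 counts is the least certain of the 10 members. A figure legend of the study speaks of technical triplicates while its methods state 3 mice per genotype. If the samples were not separate mice, the p values would measure technical spread only. No pair of libraries agreed within sampling noise.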

Additional observations from a re-analysis of the deposited data

How the results depend on the processing

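No gene of the 10, and none of the wider list, passed an adjusted p below 0.05 under any of the alternatives run, or below 0.1 in the main analysis. With no filter on low counts, *Slc39a8* had an adjusted p of 0.0764. Over the whole table, 16 genes passed in edgeR's main analysis, 37 with DESeq2, 178 with no filter on low counts, 41 with the replicate block, 12 with limma-voom, and 11 with at least 10 counts in every mouse, and from 9 (without *Slc39a8*-NSKO mouse 2) to 38 (without control mouse 1) with a mouse left out. Same-numbered mice deviated together only weakly (r from 0.0104 to 0.142 over genes, against −0.177 to 0.0665 for different numbers). With so few pairs, these values cannot tell whether same-numbered mice share more than a number. The replicate block left 0 of the 10 genes past the threshold, with a lowest adjusted p of 0.611 in edgeR's test. It gave 2 of the 10 at an unadjusted p below 0.05, against 1 in the main analysis. The share of all genes at that cut was not counted with the block, where 41 genes of the whole table passed after adjustment, against 16. Across alternatives the log2 fold change of *Steap3* lay between 0.47 and 0.72 (adjusted p from 0.528 to 0.9999) and that of *Tfrc* between 0.083 and 0.142 (adjusted p from 0.660 to 0.9999). *Steap2*, *Fth1*, *Ftl1*, *Ireb2*, *Slc40a1*, *Ncoa4*, *Fbxl5*, and *Slc39a8* also kept their direction, but without *Slc39a8*-NSKO mouse 1 *Fth1* moved from −0.0707 to −0.0249 and *Ftl1* from −0.0468 to −0.0091. Small differences turned with 1 mouse left out: *Trf* ranged from −0.02 to 0.0235, *Slc25a37* from −0.1546 to 0.0152, *Cp* from −0.1544 to 0.1043, *Aco1* from −0.0116 to 0.0898, *Slc25a28* from −0.1111 to 0.066, *Slc11a2* from −0.0738 to 0.0409, and the log2 ratio of *Ireb2* to *Aco1* from −0.0413 to 0.0594. *Slc11a2* was also positive with DESeq2 (0.0011), library size alone (0.0039), and no filter (0.0047), and the cause was not tested. A lone mouse is never left in a genotype by these omissions. The limits are 3 mice per genotype, the low counts of *Steap3*, and whole tissue.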
